A study of Homo sapiens with 18 samples.

Results

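BLOC1S1, SPARC, COL6A1, SCARA3, PDGFRB, HGSNAT and PMP22 are the mRNAs most often named as targets of regulated IRE1-dependent decay (RIDD). These 7 genes were taken by name, from general knowledge of the pathway and not by a rule on their values, out of the 25435 gene rows counted by RNA-Seq in HEK293doxERN2 cells. Earlier results of these data were known when the genes were chosen. HEK293 is a human embryonic kidney cell line, and this line carries a Flag-tagged ERN2 transgene that doxycycline switches on. The study asked which genes respond to graded amounts of ERN2, the epithelial form of IRE1, with and without acute ER stress.

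The 6 groups of 3 libraries shared the cell line and the transgene. They differed in doxycycline (0, 10 or 100 ng/mL for 24 hours) and in the final 3 hours, when cells received DMSO as vehicle or 200 nM thapsigargin, which blocks calcium uptake into the ER and so causes ER stress. All libraries came from 1 engineered line, and no line without the transgene was given doxycycline, so an effect of doxycycline itself and an effect of ERN2 cannot be told apart. The labels do not say whether the 3 libraries of a group came from separate cultures, and p-values measure the spread between these libraries, which may be technical. In bulk RNA, fewer cells that express a gene and less of its mRNA per cell cannot be told apart.

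IRE1 proteins sit in the ER membrane and carry a cytosolic endonuclease. It cuts XBP1 mRNA at a pair of stem-loops so that the message for an active transcription factor can be joined. In RIDD the same endonuclease cuts other mRNAs, many of them held at the ER because they encode secreted or membrane proteins, and the fragments are degraded. ERN1 (IRE1α) is found in most cells, whereas ERN2 (IRE1β) is largely restricted to mucosal epithelium. BLOC1S1, also called BLOS1, has been the standard reporter of RIDD in cells of many kinds.

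The stem-loops are shown first because the cut site is what members of this group are thought to share with XBP1. The mRNA sense strand of the principal GENCODE 29 transcript of each gene (GRCh38, the assembly named in the submitters' processing notes) was searched for a loop of the letters CNGCAGN with at least 4 consecutive stem pairs around it, counting G:C, A:U and G:U pairs. Both loops of XBP1 were found by this search, and they are given as the reference. The loop is in capitals, with 8 bases on each side in lower case, written 5′ to 3′ as DNA.
XBP1 first loop: tgctgagtCCGCAGCactcagac
XBP1 second loop: gtgcacctCTGCAGCaggtgcag
BLOC1S1: aagggcagCTGCAGTctgcccct
PDGFRB: cactgcgtCTGCAGCacgtggat
PMP22: acgaatggCTGCAGTctgtccag
COL6A1: gcacgggcCAGCAGCgcccagag

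The XBP1 loops lay in coding exon 4 on the minus strand, at chr22:28796141-28796163 with 6 stem pairs and at chr22:28796115-28796137 with 7. The BLOC1S1 match lay in the coding part of exon 4, the last exon, at chr12:55719581-55719603 on the plus strand, with 6 stem pairs. PDGFRB had a coding match in exon 10 at chr5:150129833-150129855 on the minus strand, also with 6 pairs. The match in PMP22 had 4 pairs and exists only in the spliced mRNA, since it crosses the junction of exons 3 and 4 (minus strand of chromosome 17, between 15239592 and 15259096). COL6A1 had a match with 4 pairs in exon 35, its last, at chr21:46003565-46003587 on the plus strand, and its loop alone among those of the members does not hold CTGCAG.

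No match was found in SPARC, SCARA3 or HGSNAT. Thus 4 of the 7 members held at least 1 match, against 14.5% of the 12744 genes that were tested at 100 ng/mL of doxycycline and had a GENCODE 29 transcript. PDGFRB, counted among the 4, was itself too low to be tested. The loop was searched because members are thought to share it with XBP1, so their share is a description only. The narrower loop CTGCAGN was held by BLOC1S1, PDGFRB and PMP22 and by 6.44% of these genes, whereas the bare letters CTGCAG occurred in 85.9% of the transcripts and in every member. A match describes letters and possible pairing and is not a measured cut site. Lack of a match says only that these letters are not paired in this way in that transcript.

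The proteins encoded by the members differ in how they reach the ER. SPARC, a secreted glycoprotein of the extracellular matrix, and COL6A1, the α1 chain of collagen VI, are secreted. PDGFRB, a receptor tyrosine kinase for platelet-derived growth factor, SCARA3, a scavenger receptor-like protein, HGSNAT, the lysosomal enzyme that acetylates heparan sulfate, and PMP22, a small tetraspan protein of myelin, are membrane proteins. BLOC1S1 is a subunit of the BLOC-1 and BORC complexes, which act on endosomes and lysosomes from the cytosol. The highest mean Kyte-Doolittle hydropathy over any 11 residues among the first 40, a simple measure of a signal peptide or an early membrane segment, was 3.37 for PMP22, 2.72 for PDGFRB, 2.69 for HGSNAT, 2.39 for SPARC and 1.74 for COL6A1. It was 0.57 for SCARA3 and 0.26 for BLOC1S1, a value equalled or exceeded by 80.5% of the genes tested.

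Library totals ran from 14876416 to 24652240 reads on genes, and no replicate pair agreed within sampling noise. The RNA extraction label names colon crypt cells, whereas the sample labels name the HEK293 line. Of 8 colon epithelial markers only CDX2 was above 9 reads in any library (56 to 161 reads), TFF3 was at 0 in all 18 and the summed level of the list was 3.61 to 9.57 CPM (reads scaled by TMM and library total over the 18 libraries). The 4 markers of the HEK293 line summed to 121 to 208 CPM. ERN2, the induced gene, was at 9.10, 6.57 and 7.71 CPM without doxycycline, at 22.5, 27.1 and 55.9 at 10 ng/mL and at 252, 309 and 249 at 100 ng/mL in vehicle-treated cells. With thapsigargin it was at 14.2, 10.4 and 12.0, at 32.1, 53.9 and 112, and at 272, 175 and 175. In both treatments replicate 3 at 10 ng/mL held about as much again of ERN2 as the next library of its group.

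At 100 ng/mL of doxycycline without thapsigargin, COL6A1, BLOC1S1, SCARA3 and SPARC mRNA fell, to between 36.8% and 64.9% of their uninduced levels. HGSNAT and PMP22 were also lower in every induced library than in every uninduced library, but by less, and neither passed the threshold of an adjusted p of 0.01 (edgeR's quasi-likelihood test, with p-values adjusted over all genes by Benjamini-Hochberg). PDGFRB was too low to be tested. Of all 14444 genes tested, 7.49% were called lower in this comparison, against 4 of the 6 members tested. A complete separation of the groups in the downward direction, seen for all 6, was found for 16.1% of all genes.

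**Figure D1:**
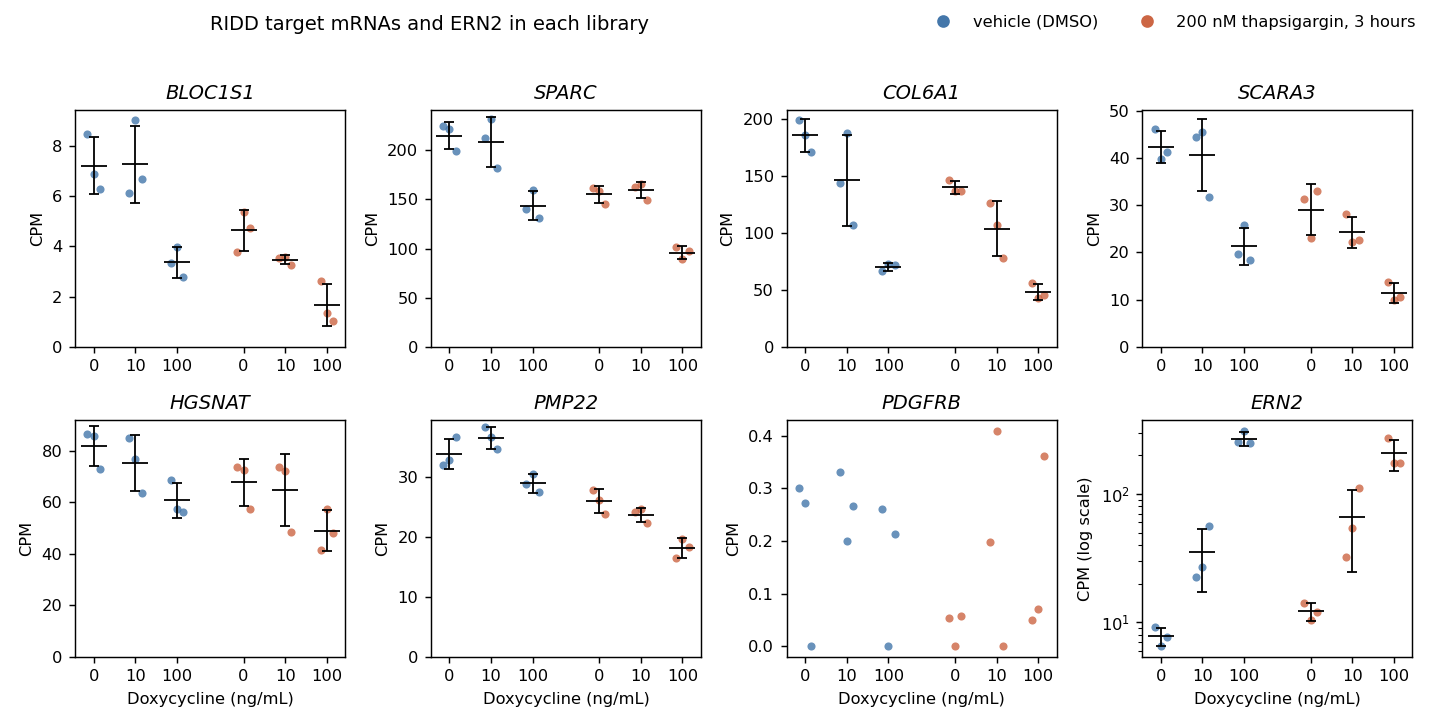
TMM-scaled CPM (vertical axes, linear from 0, or from just under 0 for PDGFRB, and on a log scale for ERN2) of the 7 RIDD targets and of ERN2 in each of 18 libraries, by doxycycline dose in ng/mL (horizontal axes) and treatment (blue, vehicle; orange, thapsigargin). Each point is a library, and horizontal ticks with bars are the mean ± SD of 3 libraries, left out for PDGFRB, which had 9 reads or fewer in each library. In each tested member the libraries at 100 ng/mL lie below those without doxycycline, whereas those at 10 ng/mL overlap them in vehicle-treated cells.

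BLOC1S1 lies at chr12:55716037-55720087 on the plus strand and has a short principal transcript of 571 bases. It was at 8.50, 6.89 and 6.29 CPM in the uninduced vehicle libraries (170, 127 and 110 reads), at 6.11, 9.03 and 6.70 with 10 ng/mL and at 3.34, 4.00 and 2.76 with 100 ng/mL. All 3 libraries at the higher dose were thus below all 6 others, and the lower dose could not be told from none. For 100 ng/mL the log2 fold change was -1.14 (standard error, SE, 0.202, adjusted p = 0.00184 by edgeR), which is 45.5% of the uninduced level with a 95% confidence interval of 33.6% to 61.7%. The value for 10 ng/mL was 0.0018, with an interval of 74.7% to 134% of the uninduced level. The read-through gene BLOC1S1-RDH5 covers all of BLOC1S1 on the same strand, and its own row held 0 reads in every library.

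With thapsigargin the BLOC1S1 level was 3.79, 5.39 and 4.73 CPM without doxycycline, 3.56, 3.59 and 3.25 at 10 ng/mL and 2.63, 1.34 and 1.03 at 100 ng/mL. The 3 thapsigargin groups did not overlap and followed the dose downward, and the lowest group rested on 53, 19 and 20 reads. Relative to uninduced cells with thapsigargin, the log2 fold change at 100 ng/mL was -1.46 (SE 0.346, adjusted p = 0.0103 by edgeR), just short of the threshold. Of 6 fits that each left out 1 library, 1 called it, that without replicate 1 of the high-dose group (-1.97, adjusted p = 0.000133). Over the 6 fits the value ran up to -1.19 and the adjusted p up to 0.0473. Without that replicate 1993 of all genes were called lower and 1957 higher, against 1292 and 220 with all libraries. DESeq2 called BLOC1S1 with all libraries (adjusted p = 0.000877), and 1654 of all genes lower. The BLOC1S1 change for 10 ng/mL was -0.43 (SE 0.202, adjusted p = 0.978 by edgeR). With the replicate number as a block in that fit it was -0.42 and still not called (adjusted p = 0.16 by edgeR). The block called 367 of all genes lower there. With both treatments, 100 ng/mL and thapsigargin, the mean BLOC1S1 level was 23.1% of that in uninduced vehicle cells.

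The comparison of thapsigargin with vehicle did not pass for BLOC1S1 at any dose. Without doxycycline its log2 fold change was -0.63 (adjusted p = 0.0326 by edgeR), with the lower dose -1.07 (adjusted p = 0.0157) and with the higher -0.98 (adjusted p = 0.127). Every thapsigargin library was below every vehicle library of its dose. In order of the means, BLOC1S1 was highest at 10 and 0 ng/mL in vehicle, whose libraries overlapped, followed by uninduced cells with thapsigargin. Then came 10 ng/mL with thapsigargin and 100 ng/mL in vehicle, which overlapped each other at 3.47 ± 0.185 and 3.37 ± 0.617 CPM (SD, n = 3), and last 100 ng/mL with thapsigargin.

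The partners of the BLOC1S1 protein in the BLOC-1 and BORC complexes are cytosolic and give a comparison within its complexes. Of 12 partner rows, 11 were tested and none passed in either direction at 100 ng/mL in vehicle-treated cells, with a median log2 fold change of 0.25. The lowest was BLOC1S6, which encodes pallidin, at -0.02 (SE 0.132), and the highest was the BORC subunit BORCS5, counted under its older symbol LOH12CR1, at 0.47 (SE 0.169, adjusted p = 0.0886 by edgeR). None of the 11 intervals reached that of BLOC1S1 in the plot of RIDD substrates and partners. The lack of calls among 11 partners says little by itself. Over the whole table, 1082 genes were called lower in this comparison and 121 higher, out of 14444 tested.

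COL6A1 had the largest fall of the members. It lies at chr21:45981737-46005050 on the plus strand. In vehicle-treated cells it was at 200, 187 and 171 CPM without doxycycline, at 144, 188 and 107 at 10 ng/mL and at 66.2, 72.8 and 71.8 at 100 ng/mL. The high-dose libraries sat close together and far below the others, whereas the 10 ng/mL libraries spread widely, with replicates 1 and 3 below all uninduced libraries and replicate 2 among them. The log2 fold change at 100 ng/mL was -1.44 (SE 0.108, adjusted p = 1.9e-06 by edgeR), or 36.8% of the uninduced level (95% confidence interval 31.2% to 43.3%). The 10 ng/mL group differed by -0.35 (SE 0.163, adjusted p = 0.167), the lowest value of any member at that dose, and the difference between the doses was -1.08 (SE 0.181, adjusted p = 0.00695). The last call is lost without replicate 2 of the 10 ng/mL group (adjusted p = 0.0326) and without replicate 1 or 3 of the 100 ng/mL group (adjusted p = 0.0266 and 0.05). In these fits 9, 20 and 0 of all genes were called lower, against 354 with all libraries.

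In thapsigargin-treated cells COL6A1 was at 147, 137 and 137 CPM without doxycycline, at 126, 107 and 77.9 at 10 ng/mL and at 56.4, 42.5 and 45.3 at 100 ng/mL. These groups did not overlap. Relative to no doxycycline, 100 ng/mL gave -1.55 (SE 0.153, adjusted p = 2.44e-05 by edgeR), and both high-dose calls held whichever library was left out. For 10 ng/mL the value was -0.45 (adjusted p = 0.978 by edgeR). With the replicate number as a block, whose pairing the libraries of these 2 groups bear out, COL6A1 was at -0.47 and was called (adjusted p = 0.000688 by edgeR). The block called 367 genes lower and 197 higher of 14509 in that comparison. Without it 0% of all genes were called, where 612 genes had an unadjusted p under 0.05 and DESeq2 called 39.

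The other chains of collagen VI differed in level. COL6A2, which assembles with COL6A1 into the collagen VI monomer, fell as well at 100 ng/mL in vehicle, with a log2 fold change of -1.15 (SE 0.134, adjusted p = 6.63e-05 by edgeR), and was at -0.03 at 10 ng/mL in vehicle. With thapsigargin COL6A2 fell at 100 ng/mL too, with -1.71 (SE 0.228, adjusted p = 0.000204). COL6A3 was too low to be tested.

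SCARA3 lies at chr8:27633868-27676776 on the plus strand. It was at 46.3, 39.8 and 41.2 CPM in uninduced vehicle libraries, at 44.5, 45.4 and 31.8 with 10 ng/mL and at 19.7, 25.7 and 18.4 with 100 ng/mL. The high-dose group was below all other vehicle libraries. Its log2 fold change was -1.03 (SE 0.15, adjusted p = 0.000388 by edgeR), or 48.9% of the uninduced level, against -0.07 (adjusted p = 0.773) at 10 ng/mL. With thapsigargin, SCARA3 was at 31.2, 22.9 and 33.0 CPM without doxycycline, at 28.1, 22.1 and 22.6 at 10 ng/mL and at 13.7, 9.86 and 10.5 at 100 ng/mL. The log2 fold change at 100 ng/mL was -1.35 (SE 0.199, adjusted p = 0.000425 by edgeR), and both high-dose calls held whichever library was left out. Of the class A scavenger receptors, the group to which SCARA3 belongs by sequence, only COLEC12 could be tested, and it did not pass at 100 ng/mL, at a log2 fold change of -0.67 in vehicle (SE 0.164, adjusted p = 0.0158 by edgeR) and -0.62 with thapsigargin (adjusted p = 0.0447).

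SPARC was the most abundant member. It lies at chr5:151661096-151687165 on the minus strand, where the antisense gene CLMAT3 overlaps it over 10221 bases. Whether the counting used strand is not given in the sources used here, so reads of the antisense gene may be included. In vehicle-treated cells SPARC was at 225, 221 and 199 CPM without doxycycline, at 212, 231 and 182 with 10 ng/mL and at 140, 160 and 131 with 100 ng/mL. The fall at 100 ng/mL was even across the libraries but of smaller fold than for BLOC1S1, COL6A1 and SCARA3, at a log2 fold change of -0.62 (SE 0.111, adjusted p = 0.0019 by edgeR) and 64.9% of the uninduced level. It did not pass without uninduced replicate 1 (adjusted p = 0.0135) or without replicate 3 at the higher dose (adjusted p = 0.0128). BLOC1S1 was lost without the same uninduced library (adjusted p = 0.0108), which left 2 members called.

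With thapsigargin SPARC was at 162, 158 and 145 CPM without doxycycline, at 162, 166 and 150 at 10 ng/mL and at 102, 89.0 and 97.0 at 100 ng/mL. The uninduced and low-dose groups were alike, at a log2 fold change of 0.02 with an interval of 86.5% to 120% of the uninduced level. The high-dose group was lower, at -0.70 (SE 0.136, adjusted p = 0.00294 by edgeR). That call was lost without replicate 1 or 2 of the uninduced thapsigargin group (adjusted p = 0.0282 and 0.0202) and without replicate 2 of the 100 ng/mL thapsigargin group (adjusted p = 0.0287). In the wider SPARC family of matrix glycoproteins, 4 of 6 rows were tested in vehicle-treated cells at 100 ng/mL. SPOCK1, a proteoglycan, fell there (log2 fold change -1.07, adjusted p = 0.00907 by edgeR), SMOC2 was the lowest without passing (-1.48, adjusted p = 0.0146) and SPOCK2 was the highest at 0.34. With thapsigargin 3 rows were tested, and SMOC1 fell (-1.09, adjusted p = 0.00414), while SPOCK1, the lowest at -1.21 (adjusted p = 0.0184), did not pass.

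HGSNAT and PMP22 changed least. HGSNAT, at chr8:43140455-43202855 on the plus strand, was at 86.4, 85.8 and 72.7 CPM in uninduced vehicle libraries, at 85.0, 76.8 and 63.4 with 10 ng/mL and at 68.6, 57.2 and 56.3 with 100 ng/mL. The 100 ng/mL libraries lay under all uninduced libraries and overlapped those at 10 ng/mL, with a log2 fold change of -0.47 (SE 0.122, adjusted p = 0.0206 by edgeR) and an interval of 60.1% to 86.7% of the uninduced level. DESeq2 called HGSNAT (adjusted p = 0.00609). So did edgeR in 1 of 6 fits that each left out 1 library, that without replicate 1 at 100 ng/mL (-0.56, adjusted p = 0.00823). With thapsigargin HGSNAT was at 73.5, 72.5 and 57.3 CPM, at 73.5, 72.3 and 48.4, and at 41.5, 57.2 and 48.1, in order of dose. The high-dose libraries lay only just under the uninduced ones, and the difference at 100 ng/mL was again -0.47 (SE 0.179, adjusted p = 0.0773). Among other genes of heparan sulfate breakdown, the glucuronidase GUSB (log2 fold change -0.94) and the endoglycosidase HPSE, the lowest at -1.20, fell at 100 ng/mL in vehicle, with adjusted p by edgeR of 0.000142 and 0.000246. IDUA, the α-L-iduronidase, was the highest at 0.04.

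PMP22 lies at chr17:15229777-15265357 on the minus strand, and 2 genes of the opposite strand, AC005703.3 and AC005703.6, and the microRNA gene MIR4731 overlap it. It was at 31.95, 32.9 and 36.6 CPM in uninduced vehicle libraries, at 38.4, 36.7 and 34.7 with 10 ng/mL and at 28.8, 30.6 and 27.5 with 100 ng/mL. The high dose was lower in every library, yet by a log2 fold change of only -0.27 (SE 0.121, adjusted p = 0.168 by edgeR), with an interval that ran from 69.3% to 99.9% of the uninduced level. With thapsigargin PMP22 was at 27.8, 26.3 and 23.9 CPM, at 24.1, 24.6 and 22.3, and at 16.4, 19.7 and 18.4, in order of dose. The log2 fold change at 100 ng/mL was -0.52 (SE 0.169, adjusted p = 0.0454). EMP1 and EMP2, membrane proteins of the same family, both fell in vehicle-treated cells at 100 ng/mL, with log2 fold changes of -0.76 (adjusted p = 0.00101 by edgeR) and -1.77 (adjusted p = 3.92e-07).

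PDGFRB lies at chr5:150113837-150155872 on the minus strand and was close to silent in this line. It had 6, 5 and 0 reads in uninduced vehicle libraries, 7, 4 and 6 at 10 ng/mL and 5, 0 and 4 at 100 ng/mL. With thapsigargin it had 1, 0 and 1 reads, 5, 9 and 0, and 1, 1 and 7, in the same order. No order of groups can be read from such counts, and a difference in PDGFRB was not detectable at this depth. Of 6 other genes of PDGF receptors and ligands, all tested, PDGFRL, a receptor-like secreted protein, fell at 100 ng/mL in vehicle (log2 fold change -1.56, adjusted p = 0.00277 by edgeR). PDGFB was the highest at 0.20.

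Per kilobase of transcript, where levels of different genes can be compared, SPARC (58.1 ± 3.75 RPKM, SD, n = 3) and COL6A1 (43.8 ± 3.38) stood above the other members in uninduced vehicle cells. PMP22 (18.2 ± 1.32), HGSNAT (15.6 ± 1.47), BLOC1S1 (12.7 ± 2.00) and SCARA3 (12.1 ± 0.969) followed. Libraries of HGSNAT and BLOC1S1 overlapped on this scale, as did those of BLOC1S1 and SCARA3. PDGFRB was at 0.033 ± 0.029. In cells with 100 ng/mL and thapsigargin the order was SPARC (25.9 ± 1.73), COL6A1 (11.3 ± 1.72), PMP22 (9.77 ± 0.891), HGSNAT (9.35 ± 1.50), SCARA3 (3.24 ± 0.594) and BLOC1S1 (2.92 ± 1.48). Here COL6A1, PMP22 and HGSNAT overlapped between their libraries, as did SCARA3 and BLOC1S1. Relative to uninduced vehicle cells, these levels were 44.6% for SPARC, 25.9% for COL6A1, 53.7% for PMP22, 60.0% for HGSNAT, 26.8% for SCARA3 and 23.1% for BLOC1S1. The order of falls thus differed from the order of levels.

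**Figure D2:**
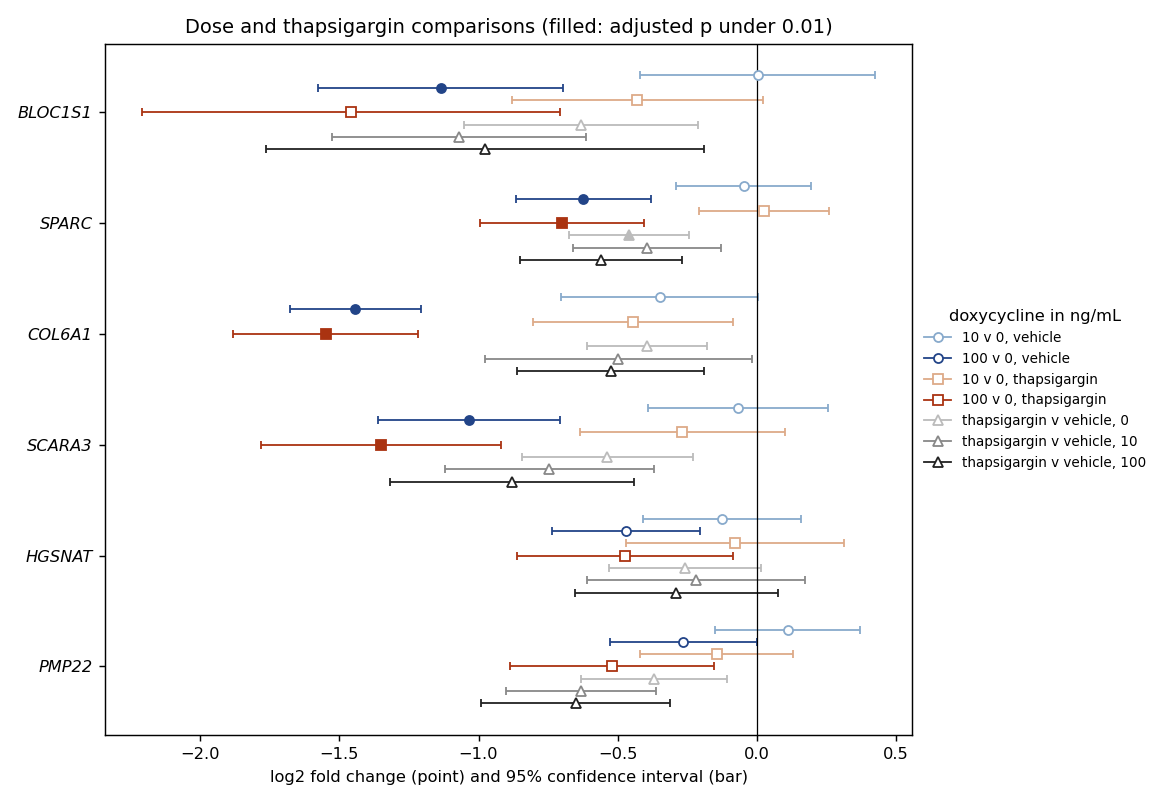
log2 fold changes (horizontal axis, points) with 95% confidence intervals (bars) of the 6 tested RIDD targets (vertical axis) for doxycycline at 10 and 100 ng/mL against 0 in vehicle (circles) and in thapsigargin (squares), and for thapsigargin against vehicle at each dose (triangles). Filled symbols passed an adjusted p of 0.01 by edgeR: 4 of the members at 100 ng/mL in vehicle, 3 at 100 ng/mL with thapsigargin and SPARC alone for thapsigargin without doxycycline. The fits shown had no block for the replicate number.

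Among vehicle-treated cells no member had an unadjusted p under 0.05 at 10 ng/mL, whereas 4421 of all 14497 genes did. No member was called there by edgeR, against 0.193% of all genes, or by DESeq2. The share of all genes depended on single libraries, with 1566 called lower and 1177 higher without replicate 1 at 10 ng/mL, 0 without any 1 of the uninduced libraries or without replicate 2 at 10 ng/mL, and 274 lower and 107 higher by DESeq2. No member was called in any of these fits. The median log2 fold change of the 6 members was -0.06, with all genes at 0.0024. From 10 to 100 ng/mL, COL6A1 was called in vehicle (2.43% of all genes called lower). BLOC1S1 at -1.13 (adjusted p = 0.0125 by edgeR) and SCARA3 at -0.96 (adjusted p = 0.0124) had falls of like size and came just short. DESeq2 called 4 of the members in that comparison, and so did the fit with all 6 groups, with 788 and 624 of all genes called lower against 354 by the edgeR test above. Across single left-out libraries the count was 0 to 3, with 0 called without replicate 2 at 10 ng/mL and without replicate 1 or 3 at 100 ng/mL. Those fits called only 9, 20 and 0 of all genes lower. The count was 3 without replicate 1 at 10 ng/mL, where 485 of all genes were called lower.

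Among thapsigargin-treated cells the same doses gave COL6A1, SCARA3 and SPARC as lower at 100 ng/mL than without doxycycline, against 9% of all genes called lower. All 6 tested members were again separated, as were 20.4% of all genes. The median of the members was -1.03 on the log2 scale, and that of all genes was 0.044. Between 10 and 100 ng/mL with thapsigargin the same 3 genes were called (5.32% of all genes called lower), COL6A1 at -1.11 (adjusted p = 0.0029 by edgeR), SCARA3 at -1.09 (adjusted p = 0.00355) and SPARC at -0.73 (adjusted p = 0.00486). None of the members was called there without replicate 1 or 2 of the 10 ng/mL group or without replicate 2 of the 100 ng/mL group, and COL6A1 alone without replicate 3 of the latter. In the same order, these fits called 216, 143, 42 and 529 of all genes lower, against 771 with all libraries. The comparisons at 100 and at 10 ng/mL share their uninduced libraries within each treatment.

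Thapsigargin for 3 hours lowered SPARC in cells without doxycycline, to 72.7% of the vehicle level (log2 fold change -0.46, SE 0.101, adjusted p = 0.00593 by edgeR). It was the only member called, against 4.74% of all genes called lower. COL6A1 (-0.39, adjusted p = 0.0131), SCARA3 (-0.54, adjusted p = 0.016), BLOC1S1 (-0.63, adjusted p = 0.0326), PMP22 (-0.37, adjusted p = 0.0432) and HGSNAT (-0.26, adjusted p = 0.16) did not pass. Of the 6, HGSNAT alone had libraries of both treatments that overlapped, and 20% of all genes were separated downward. The SPARC call was lost in 5 of 6 fits that each left out 1 library, all but the one without thapsigargin replicate 3, where 2 members were called. Its adjusted p over the 6 fits was 0.00759 to 0.0335. The 5 fits called 295 to 442 of all genes lower and the fit without thapsigargin replicate 3 called 809, against 682 with all libraries.

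With ERN2 induced, no member was called between thapsigargin and vehicle, although the log2 fold changes were of similar or larger size. With 10 ng/mL they ran from -0.22 for HGSNAT to -1.07 for BLOC1S1, with PMP22 at -0.63 (adjusted p = 0.016 by edgeR) and SCARA3 at -0.75 (adjusted p = 0.0294). Of all genes, 0.294% were called lower there, and 12.9% were separated downward, as were 4 of the 6 members. With 100 ng/mL they ran from -0.29 for HGSNAT to -0.98 for BLOC1S1, with SCARA3 at -0.88 (adjusted p = 0.0446), PMP22 at -0.65 (adjusted p = 0.048) and SPARC at -0.56 (adjusted p = 0.0482). In that comparison 0.0208% of all genes were called lower (3, with 26 higher), and with library totals as the only scaling 23 were lower and 28 higher, without any member. The groups were separated downward for 5 of the 6 members, HGSNAT being the exception, and for 15.1% of all genes. DESeq2 called 3 members at each of these doses. Without replicate 1 of the 100 ng/mL thapsigargin group, the library with the most ERN2 among them, edgeR called 4 members at that dose, with BLOC1S1 at -1.52 (adjusted p = 0.00384). In that fit the calls over all 14575 genes also went up, to 1142 lower and 1426 higher. DESeq2 called 434 genes lower at 10 ng/mL and 475 at 100 ng/mL, against 43 and 3 by edgeR.

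Whether the response to thapsigargin differed with ERN2 was tested directly as an interaction, and no member passed at either dose. At 100 ng/mL the difference in log2 fold change from that in uninduced cells was -0.26 for BLOC1S1 (95% confidence interval -1.11 to 0.59), -0.26 for SCARA3 (-0.77 to 0.25) and -0.20 for PMP22 (-0.58 to 0.19). It was -0.05 for COL6A1 (-0.40 to 0.30), -0.02 for SPARC (-0.34 to 0.30) and 0.05 for HGSNAT (-0.42 to 0.52). The differences at 10 ng/mL ran from -0.43 for BLOC1S1 (-1.01 to 0.16) to 0.08 for SPARC (-0.23 to 0.39). Over the whole table, 0.0406% of genes were called in the interaction of the higher dose and 0% in that of the lower, where 664 genes had an unadjusted p under 0.05 and DESeq2 called 3. The share for the higher dose moved with 1 library: without replicate 1 of the 100 ng/mL thapsigargin group 421 genes were called lower and 865 higher, still without any member. XBP1 was among the genes called at 100 ng/mL, with a difference of -2.14 (SE 0.128, adjusted p = 1.2e-06).

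**Figure D3:**
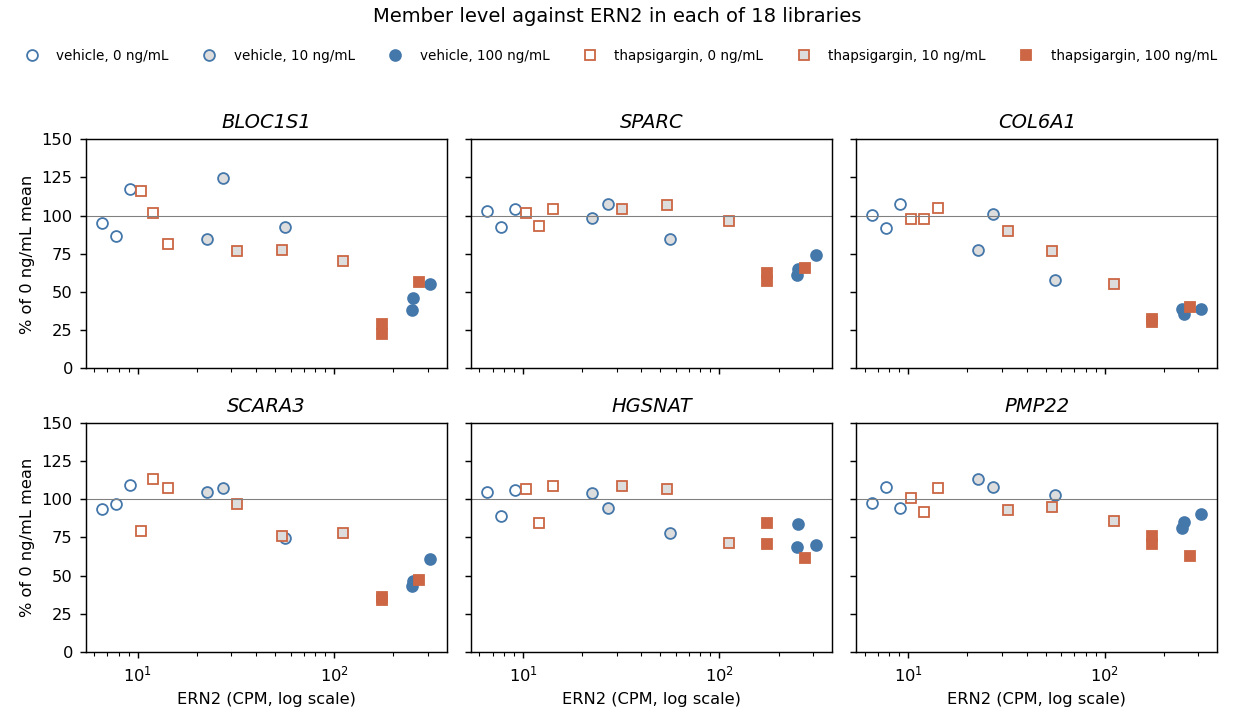
Level of each tested RIDD target in each of 18 libraries (vertical axes, as a percent of the mean of the uninduced libraries of the same treatment) against ERN2 in the same library (horizontal axes, CPM, log scale), with circles for vehicle, squares for thapsigargin and fill for the dose. Replicate 3 at 10 ng/mL, the library with the most ERN2 at that dose, holds 57.7% of the uninduced COL6A1 level with vehicle and 55.5% with thapsigargin, between the other libraries at 10 ng/mL and those at 100 ng/mL.

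The library with the most ERN2 in both 10 ng/mL groups was replicate 3. In vehicle, replicate 3 had 55.9 CPM of ERN2 and the lowest level of its group for 5 of the 6 tested members, whereas 32.6% of 13209 genes were lowest in that library. In thapsigargin, replicate 3 had 112 CPM of ERN2 and again the lowest level for 5 of 6, against 41.9% of all genes. COL6A1 was at 57.7% and 55.5% of its uninduced mean in these libraries, SCARA3 at 74.9% and 77.7% and HGSNAT at 77.6% and 71.5%. SPARC was at 84.5% and 96.5%, PMP22 at 103% and 85.8% and BLOC1S1 at 92.7% and 70.2%. At 100 ng/mL in vehicle, replicate 3, which had the least ERN2 of its group at 249 CPM, was also lowest for 5 of 6 members, against 23.4% of all genes. Replicate 3 of the uninduced vehicle group was lowest for 4 of 6, against 30.9%. Among the 100 ng/mL libraries with thapsigargin the order went the other way for most members: replicate 1, with 272 CPM of ERN2, held more BLOC1S1, SPARC, COL6A1 and SCARA3 than replicates 2 and 3, with 175 CPM each.

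The endonucleases and XBP1 moved as follows beside the members. In vehicle XBP1 rose at 10 ng/mL (log2 fold change 0.84, adjusted p = 0.00527 by edgeR) and at 100 ng/mL (1.03, adjusted p = 1.85e-05). The call at 10 ng/mL was lost without replicate 1, 2 or 3 of the uninduced libraries and without replicate 2 at 10 ng/mL. At 100 ng/mL with thapsigargin XBP1 fell relative to uninduced cells with thapsigargin (-1.16, adjusted p = 3.65e-05). ERN1 was at 7.65, 7.68 and 4.83 CPM on average with rising dose in vehicle and at 15.9, 12.1 and 5.71 with thapsigargin. Its difference at 100 ng/mL was -0.70 in vehicle, which did not pass (adjusted p = 0.0175), and it fell by 1.48 on the log2 scale with thapsigargin (adjusted p = 0.000205). Spliced and unspliced XBP1 are summed in these counts, and splicing was not measured. Of 11 genes of the IRE1 and XBP1 arm, all tested, 8 rose at 100 ng/mL in vehicle, where 121 of all 14444 genes were called higher, and none fell. These were ERN2, XBP1, the BiP cochaperone DNAJB9 (2.07), SEC61B and SERP1 of the translocation pore, SEC24D of the COPII coat, the ubiquitin ligase SYVN1 and its partner HERPUD1. With thapsigargin 3 of the 11 fell at 100 ng/mL, ERN1, XBP1 and the BiP cochaperone DNAJC3, ERN2 and SEC61B rose, and the median was -0.28. Of all 14358 genes, 1292 were called lower there and 220 higher.

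A longer list of RIDD substrates from cells and tissues of other kinds gave 17 rows, of which 10 could be tested. At 100 ng/mL in vehicle 8 fell and none rose, where 7.49% of all genes were called lower. The median log2 fold change was -1.86, against -0.83 for the members and -0.0068 for all genes. DGAT2, which makes triglycerides, was the lowest at -2.65 (SE 0.503, adjusted p = 0.00297 by edgeR). The glycosyltransferase GALNT10 (-2.16), the cargo receptor ERGIC3 (-2.11), the peptide-loading factor TAPBP (-2.00), the trans-Golgi protein TGOLN2 (-1.92) and the GPI-anchored complement inhibitor CD59 (-1.79) had lower log2 fold changes than any member, with adjusted p values of 4.25e-07 or less. GALNT2 (-0.86) and the death receptor TNFRSF10B (-0.46, adjusted p = 0.00599) fell by less. PER1, a clock gene that encodes a nuclear and cytosolic protein, was the highest at 0.18.

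TGOLN2 was called at 10 ng/mL in vehicle as well (-0.96, adjusted p = 0.00542 by edgeR), unlike any member. That call was lost without replicate 1, 2 or 3 of the uninduced libraries and without replicate 2 at 10 ng/mL. In each of these fits 0 genes were called. With thapsigargin 7 of 9 tested genes of this list were called lower at 100 ng/mL, against 9% of all genes, with a median of -1.43. DGAT2 was not among these 7. Thapsigargin alone, a comparison in which 10 genes of the list were tested, lowered 5 (CD59, GALNT2, TGOLN2, TAPBP and DGAT2), against 4.74% of all genes called lower. It raised PER1 by a log2 fold change of 1.17 (adjusted p = 4.61e-05 by edgeR), where 929 of all 14397 genes were called higher.

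**Figure D4:**
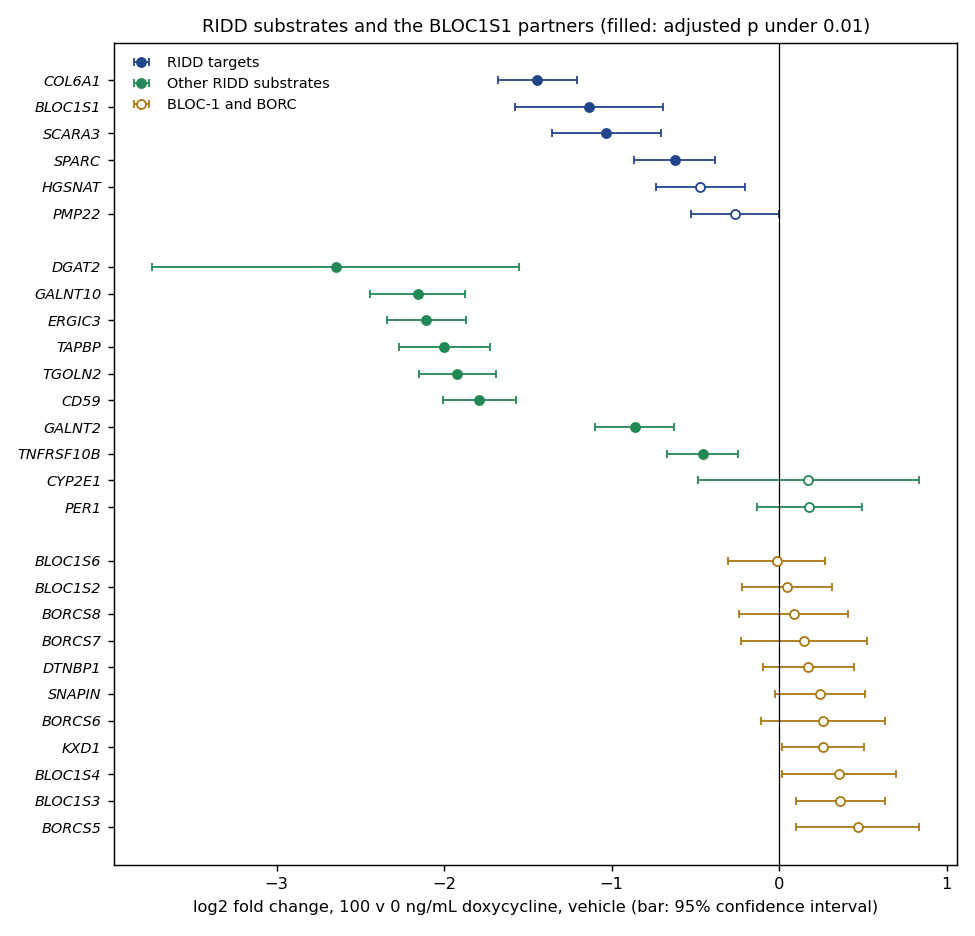
log2 fold changes (horizontal axis) with 95% confidence intervals (bars) at 100 against 0 ng/mL of doxycycline in vehicle-treated cells for the 6 tested RIDD targets (blue), 10 other RIDD substrates (green) and 11 partners of BLOC1S1 in BLOC-1 and BORC (ochre), by gene (vertical axis). Filled points passed an adjusted p of 0.01 by edgeR. DGAT2 to CD59 lie below COL6A1, the lowest member, while the partners run from -0.02 to 0.47.

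The features of the sequences were set beside the dose response for all genes. Of the genes with a CNGCAGN stem-loop, 11.1% were called lower at 100 ng/mL in vehicle, against 7.61% of those without. Of the genes with an amino-terminal hydropathy of at least 2, 30.1% were called lower, against 3.37% of the others. Genes with both features were called lower in 36.9% of cases, although PMP22, the only tested member with both, was not called, and those with the stem-loop and a hydropathy under 2, the class of BLOC1S1 and COL6A1, in 5.07%. SPARC and HGSNAT belong to the class with the hydropathy and without the stem-loop, of which 28.9% were called lower. SCARA3, with neither, was called as well. COL6A1 (1.74) is secreted and SCARA3 (0.57) is a membrane protein, so a hydropathy under 2 does not mark a cytosolic protein. In the longer list CD59, GALNT10, GALNT2, TGOLN2, DGAT2 and PER1 had at least 1 stem-loop, and ERGIC3, TAPBP and TNFRSF10B had none. Transcript length was not held fixed in these shares.

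The levels of the members across the 18 libraries, which fall into 6 groups and are not independent, varied together as log2 CPM. Pearson's r ran from 0.705 between BLOC1S1 and HGSNAT to 0.961 between SPARC and SCARA3. Of 15023 genes, the rows most like BLOC1S1 were MFI2 (0.975), ADCY6 (0.972) and PLXNB2 (0.970). The most like SPARC were BMP7 (0.977), SDC3 (0.977) and COL4A2 (0.976), and the most like COL6A1 were SEPN1 (0.989), NID1 (0.987) and CTSB (0.985). SCARA3 was most like BMP7 (0.980), ITM2C (0.977) and TGFB1 (0.977). The likeness was looser for HGSNAT, with SEPP1 (0.943), PTPRA (0.932) and SLC35D2 (0.929), and for PMP22, with PVRL1 (0.946), KIAA1161 (0.938) and ERLIN2 (0.935).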

How the data were processed

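RNA-Seq libraries were prepared with a stranded mRNA kit. The authors' pipeline was VIPER with STAR as the aligner, and the deposited table holds raw counts of reads per gene symbol (25435 rows) for 18 libraries, with hg38 named in the submitters' processing notes. The STAR version, annotation and strand setting are not given in the sources used here. Groups and replicate numbers came from the sample labels.

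Each comparison used only its own groups. Genes kept by filterByExpr (minimum count 10) were scaled by TMM, and glmQLFit and glmQLFTest of edgeR 4.0.16 (R 4.3.3) gave p-values, adjusted over all genes by Benjamini-Hochberg and held against the study's threshold of 0.01. SE was taken as the absolute log2 fold change over the square root of F. RPKM are CPM per kilobase of the GENCODE 29 principal transcript. Permuting 3 libraries against 3 allows a two-sided p of 0.1 at the least, and no single-gene permutation was run.

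The members, the gene lists and the tests were chosen with earlier results of these data known. Named are all members, ERN2, ERN1 and XBP1, from each list the genes past the threshold at 100 ng/mL in vehicle and the lowest and highest there, and for each member the 3 rows of highest Pearson correlation (log2 of CPM + 0.5). Some listed genes are not reported here. Older symbols were matched through RefSeq synonyms. Alternatives were DESeq2 1.42.0, RLE size factors, library totals alone, no filter, all 6 groups in 1 fit, a block for the replicate number, a threshold of 0.05 and each library left out in turn. Replicate numbers were taken to pair libraries where every same-numbered pair had a correlation of deviations over 0.1, which held only for 0 and 10 ng/mL with thapsigargin (0.448 to 0.592). Plots used matplotlib 3.10.9 and Python 3.11.15.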

Additional observations from a re-analysis of the deposited data

How the results depend on the processing

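At 100 against 0 ng/mL in vehicle the 4 calls among the members stood under each alternative that kept all libraries except the replicate block, under which SPARC was not called (adjusted p = 0.0123) and 3 remained called. Counts of members called with single libraries left out ran from 2 to 5 in that comparison, 0 to 3 between 10 and 100 ng/mL in vehicle, 2 to 4 at 100 ng/mL with thapsigargin, 0 to 4 between 10 and 100 ng/mL with thapsigargin, 0 to 2 for thapsigargin without doxycycline and 0 to 4 for thapsigargin at 100 ng/mL. In the same order, the genes called lower over the whole table ran from 835 to 1271, 0 to 485, 733 to 1993, 42 to 1309, 295 to 809 and 0 to 1142. Between 10 and 100 ng/mL in vehicle (1 member called) DESeq2, no filter on low counts, all 6 groups in 1 fit, the replicate block and an adjusted p of 0.05 each gave 4. At 100 ng/mL with thapsigargin (3 called) all 6 groups and an adjusted p of 0.05 gave 5, with 2044 and 1984 of all genes called lower, against 1292. Between 10 and 100 ng/mL with thapsigargin (3 called) all 6 groups gave 5 and the replicate block 1. At 10 ng/mL with thapsigargin (0 called) the replicate block gave 1. For thapsigargin without doxycycline (1 called) DESeq2 gave 3, no filter 2, the replicate block 4 and an adjusted p of 0.05 gave 5. For thapsigargin at 10 ng/mL (0 called) DESeq2, no filter and an adjusted p of 0.05 gave 3, all 6 groups 2 and the replicate block 5. For thapsigargin at 100 ng/mL (0 called) DESeq2, all 6 groups and an adjusted p of 0.05 gave 3. The calls over all genes moved as well. For thapsigargin at 10 ng/mL 43 genes were lower, with 434 by DESeq2, 161 without the filter, 367 at an adjusted p of 0.05, 215 with all 6 groups and 1666 with the block. At 100 ng/mL the 3 lower genes became 475, 708 and 342 with DESeq2, all 6 groups and the looser p. Without doxycycline 682 became 1076 by DESeq2, 974 without the filter, 1507 at the looser p and 1726 with the block. Between the doses in vehicle 354 became 788, 633, 821 and 1122 under these settings and 624 with all 6 groups, and with thapsigargin 771 became 1725 with all 6 groups and 382 with the block. The cause of these moves was not tested. Except at 10 ng/mL with thapsigargin the pairing rule was not met, so the block is a setting there, and whether libraries pair is not settled. For thapsigargin without doxycycline the same-numbered pairs had r of 0.078, 0.287 and 0.365. In the remaining comparisons the lowest r was negative. The block also lost SPARC at 100 ng/mL with thapsigargin (adjusted p = 0.0122 by edgeR) and called BLOC1S1 there (adjusted p = 0.00472). Interactions gave 0 members under every alternative run. With library totals as the only scaling the median of all genes in the interaction at 100 ng/mL moved from 0.039 to -0.14.

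Signs changed only for log2 fold changes near 0, none of them called. BLOC1S1 at 10 ng/mL in vehicle was 0.0018, with -0.0028 by DESeq2, -0.0033 with RLE size factors, -0.0017 with the replicate block and -0.17 to 0.14 with single libraries left out. HGSNAT in the interaction at 100 ng/mL was 0.05, with -0.014 by DESeq2 and by RLE size factors, -0.13 with library totals, -0.066 with all 6 groups and -0.096 to 0.15 with libraries left out. With single libraries left out, values at 10 ng/mL in vehicle ran from -0.15 to 0.079 for SCARA3 and from -0.123 to 0.0403 for SPARC, and with thapsigargin from -0.0196 to 0.0746 for SPARC and from -0.18 to 0.10 for HGSNAT. In the interaction at 10 ng/mL they ran from -0.0595 to 0.224 for HGSNAT, -0.28 to 0.12 for COL6A1 and -0.017 to 0.15 for SPARC, and in that at 100 ng/mL from -0.11 to 0.052 for SPARC and -0.23 to 0.015 for COL6A1. Reads were few for PDGFRB throughout (9 or fewer in each library) and for BLOC1S1 at 100 ng/mL with thapsigargin (53, 19 and 20).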
